A study of Mus musculus with 6 samples.

Results

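CXCR3 is a chemokine receptor carried by activated T cells and natural killer cells, and its gene was described here with those of its interferon-induced ligands in mouse oral tumours. The genes were the rows with the symbols Cxcl9, Cxcl10, Cxcl11 and Cxcr3, and all 4 were found among the 770 genes of the table. They were selected on their levels and group differences in these same libraries, so both are given as a description and were not tested. The tumours were oral squamous cell carcinomas induced by the carcinogen 4NQO. Of the 6 samples, 3 came from mice given vehicle and 3 from mice treated with agonistic anti-CD40, an antibody to a receptor by which helper T cells activate antigen-presenting cells. All RNA came from formalin-fixed, paraffin-embedded primary tumours. The labels name no mouse strain, age, dose or time. They do not say whether each sample came from a separate animal, so the spread between samples may be partly technical. If some shared an animal, the SEs and intervals below, which treat samples as independent, could be too narrow and the p-values too low.

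CXCL9, CXCL10 and CXCL11 are small secreted proteins that attract cells bearing CXCR3. Interferon gamma from T cells and natural killer cells acts through its receptor and the kinases JAK1 and JAK2 to induce all these ligands in macrophages, dendritic cells, endothelium and tumour cells. CXCL10 and CXCL11 are also induced by type I interferon, and NF-κB takes part in switching on CXCL9 and CXCL10. The receptor is carried by type 1 helper T cells, CD8 T cells and natural killer cells.

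The deposited values could be turned back into whole counts, of which a library held 333400 to 578598 over the 770 genes. The background limit of each library was set at 2 SD over the mean of its 8 negative control probes and came to 24.7 to 26.6 counts. All 6 libraries exceeded it for 523 genes and none did for 82. Of 13 listed genes of squamous epithelium 6 were measured, and E-cadherin, Cdh1, lay at 12.39 ± 0.13 (SD, n = 3) in vehicle and 12.03 ± 0.10 (SD, n = 3) in anti-CD40 tumours. The basal keratin genes Krt5 and Krt14 were not analysed here. Levels below are log2 normalized counts and differences are anti-CD40 minus vehicle on that scale, with n = 3 per group and SDs after ± throughout. Levels of different genes were not compared, because each was counted with its own probe.

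The stretches just before the transcription starts of Cxcl9 and Cxcl10 are shown because these genes had the same highest and the same lowest library. They come from RefSeq, build GRCm38.p6, in which Cxcl9, Cxcl10 and Cxcl11 lie on chromosome 5 and Cxcr3 on chromosome X. In the gene order of that table Art3 stands between Cxcl9 and Cxcl10, and Cxcl11 follows Cxcl10. RefSeq classes Cxcl11 as a transcribed pseudogene in this assembly, which is of C57BL/6J, whereas the others are protein-coding. The promoter table held 3 of the 4 genes, all but Cxcl11. The 250 bases before the start lie on the minus strand at chr5:92328080-92328329 for Cxcl9 and chr5:92348890-92349139 for Cxcl10. Capitals mark matches, on either strand, to 3 cores: that of the interferon-stimulated response element (GAAA, any 2 bases, GAAA), of the gamma-activated site (TTC, any 3 bases, GAA) or of the κB site (GGG, any 5 bases, CC). The sequences run 5′ to 3′:
Cxcl9: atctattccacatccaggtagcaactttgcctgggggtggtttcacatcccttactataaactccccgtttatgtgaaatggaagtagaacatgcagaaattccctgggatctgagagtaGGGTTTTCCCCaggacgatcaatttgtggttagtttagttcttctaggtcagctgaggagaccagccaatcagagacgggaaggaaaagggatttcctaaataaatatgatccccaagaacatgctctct
Cxcl10: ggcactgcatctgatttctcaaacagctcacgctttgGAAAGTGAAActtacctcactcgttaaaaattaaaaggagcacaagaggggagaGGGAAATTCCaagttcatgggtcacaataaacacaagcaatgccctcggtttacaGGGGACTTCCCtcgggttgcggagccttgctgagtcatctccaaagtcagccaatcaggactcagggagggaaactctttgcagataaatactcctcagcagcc

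Cxcl10 held 1 match to the interferon-stimulated response element core, GAAAGTGAAA, from 213 to 204 bases before the start. Of 32851 promoter stretches of this length, 2.98% held such a match. Matches to the κB core stood in Cxcl10 from 159 to 150 and, overlapping each other, from 104 to 95 and from 103 to 94 bases before the start. In Cxcl9 a pair of overlapping κB matches, 1 on each strand, ran from 130 to 121 and from 129 to 120 bases before the start. The Cxcr3 stretch, not printed here, also held a κB match, from 139 to 130 bases before the start. The κB core was common, in 45.8% of all stretches. Neither printed window held the exact letters of the gamma-activated site core, which stood in 7.02% of all stretches. Elements spelled otherwise were not searched for. These matches describe letters and not bound sites.

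Cxcl9, the ligand gene most dependent on interferon gamma, stood at 10.19, 7.48 and 8.06 in vehicle replicates 1, 2 and 3, against 6.19, 8.13 and 7.36 in the anti-CD40 libraries of the same numbers. Vehicle 1 was the highest library and anti-CD40 1 the lowest, and the groups overlapped among the 4 others. The recovered counts were 634, 53 and 153 in vehicle and 30, 113 and 57 in anti-CD40 libraries. All exceeded the background limit, from 25.2 times the limit in vehicle 1 to 1.21 times in anti-CD40 1.

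Cxcl10, a ligand gene that answers to both interferon types, stood at 10.47, 8.43 and 7.57 in the vehicle libraries, in the same order, against 5.89, 8.0 and 8.03 in the anti-CD40 ones. Again vehicle 1 was highest and anti-CD40 1 lowest, with overlap among the others. Counts were 768, 104 and 108 in vehicle and 24, 103 and 92 in anti-CD40 libraries. The 24 counts of anti-CD40 1 lay below that library's limit of 24.8, so the level there is not distinguished from background. The libraries at the ends of the range held 578598 counts in vehicle 1 and 497475 in anti-CD40 1. Their housekeeping means were 11.05 and 11.09, in values that had already been normalized. The part of RNA quality or normalization in these extremes was not tested.

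**Figure D1:**
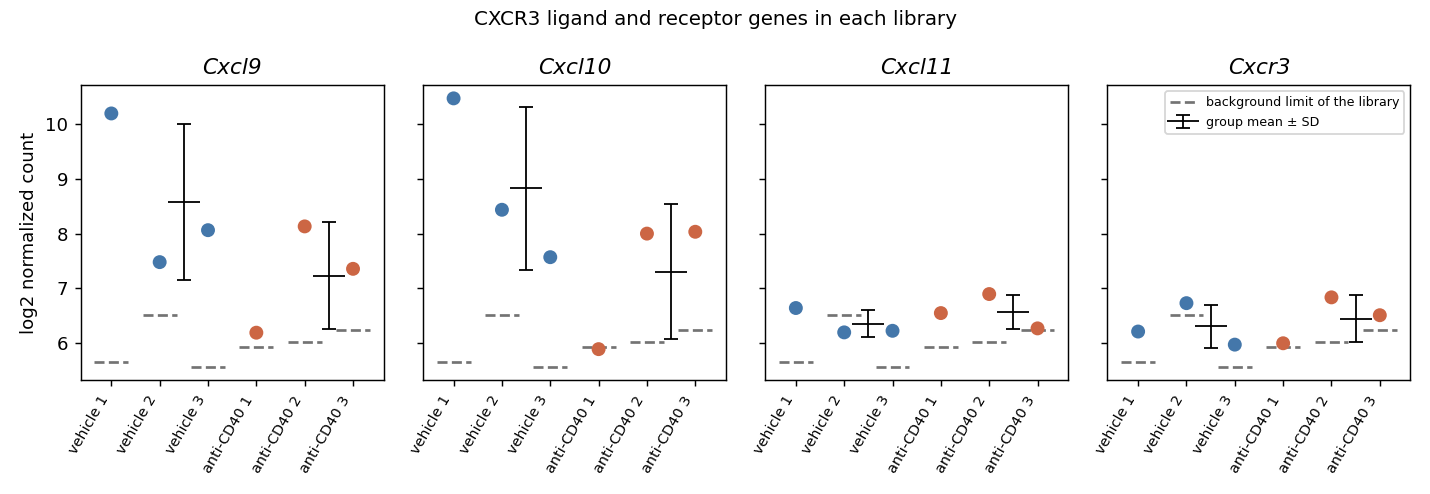
Log2 normalized count (vertical axis) of Cxcl9, Cxcl10, Cxcl11 and Cxcr3 in each of 3 vehicle (blue) and 3 anti-CD40 (orange) libraries. Dashed lines are each library's background limit, and black bars the group mean ± SD. Cxcl9 and Cxcl10 spread from 10.19 and 10.47 in vehicle 1 to 6.19 and 5.89 in anti-CD40 1. Values of Cxcl11 and Cxcr3 stayed within 1 log2 unit but lay close to background, which limits the spread they can show.

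In the mean, Cxcl9 was 8.58 ± 1.43 (SD, n = 3) in vehicle and 7.23 ± 0.98 (SD, n = 3) in anti-CD40 tumours. The difference of −1.35 (SE 0.76) had a 95% confidence interval from −3.13 to 0.43. Cxcl10 was 8.82 ± 1.49 (SD, n = 3) in vehicle and 7.31 ± 1.23 (SD, n = 3) in anti-CD40 tumours. Its difference of −1.51 (SE 0.84) had an interval from −3.49 to 0.46. Of all 770 genes, Cxcl10 had the most negative difference, followed by Cxcl9 and the chemokine gene Ccl20, both at −1.35. The ligand genes were selected with these differences known, so their ranks are only a description. The Cxcl10 difference includes the background-level value of anti-CD40 1. It was −2.08 with background subtracted and −0.81 without that library. Group medians lay closer together than the means, at 8.06 and 7.36 for Cxcl9 and at 8.43 and 8.0 for Cxcl10.

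Both ligand genes also varied more within a group than most genes did. The within-group SD was 1.22 for Cxcl9 and 1.36 for Cxcl10, which ranked 24 and 16 of 770, beside a median of 0.39 over all genes. Between its highest and lowest library Cxcl9 spanned 4.00 log2 units, beside a median of 1.02 over all genes. The span of Cxcl10 has only a lower bound, since its lowest library was at background. Within the vehicle group alone, where both exceeded background, the ranges were 2.71 for Cxcl9 and 2.90 for Cxcl10.

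**Figure D2:**
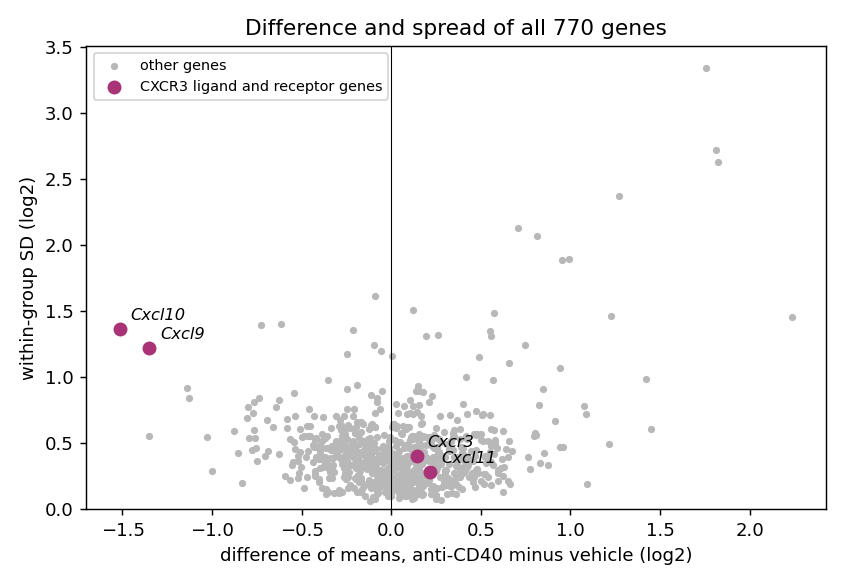
Difference of group means, anti-CD40 minus vehicle (horizontal axis, log2), against within-group SD (vertical axis, log2) for all 770 genes (grey), with the 4 CXCR3 ligand and receptor genes in purple. Cxcl9 and Cxcl10 are the leftmost points, with SDs of 1.22 and 1.36, and Cxcl11 and Cxcr3 lie near a difference of 0.

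Cxcl11, the remaining interferon-induced ligand gene, stood at 6.64, 6.20 and 6.23 in the vehicle libraries, against 6.55, 6.90 and 6.27 in the anti-CD40 ones. The groups overlapped, with anti-CD40 2 highest and vehicle 2 lowest. Counts were low, between 21 and 52, and vehicle 2 was at 21 counts below its limit of 26.6, while anti-CD40 3 was at 26 counts against 25.4. The group means were 6.36 ± 0.25 (SD, n = 3) and 6.57 ± 0.31 (SD, n = 3), a difference of 0.22 (SE 0.26) with an interval from −0.39 to 0.82. Its measured range over the 6 libraries was 0.70, beside a median of 1.02 over all genes. That range is only a lower bound, since vehicle 2, its lowest library, was below the limit. In anti-CD40 1, where Cxcl9 and Cxcl10 were lowest, Cxcl11 stood 0.086 above its own mean.

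Cxcr3, the receptor gene, stood at 6.21, 6.73 and 5.98 in the vehicle libraries, against 6.0, 6.84 and 6.51 in the anti-CD40 ones. The groups overlapped, and its counts of 26 to 45 exceeded the background limit in all 6 libraries but by no more than 1.82 times. The means were 6.31 ± 0.39 (SD, n = 3) and 6.45 ± 0.42 (SD, n = 3), a difference of 0.14 (SE 0.31) with an interval from −0.59 to 0.87. Vehicle 1, the highest library for Cxcl9 and Cxcl10, stood at −0.16 relative to the receptor gene's mean over the 6 libraries. Fewer cells of a type and less RNA per cell cannot be told apart in these whole-tumour samples.

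Among all genes measured, 0 of 770 (0%) passed limma's adjusted threshold of 0.05, and 25 genes (3.25%) had an unadjusted p under 0.05. Groups did not overlap for 79 genes (10.3%), of which those higher in anti-CD40 tumours made up 6.75% of the table and those lower 3.51%, and they overlapped for each of the 4 axis genes. The differences of the highly spread ligand genes depended on single libraries. Without vehicle 1 they were −0.54 for Cxcl9 and −0.69 for Cxcl10, and without anti-CD40 1 they were −0.83 and −0.81. Leaving out any of the 4 other libraries gave −1.90 to −1.41 for Cxcl9 and −2.14 to −1.71 for Cxcl10. Cxcl11 ranged from 0.055 without anti-CD40 2 to 0.37 without anti-CD40 3. Cxcr3 changed sign, at −0.051 without anti-CD40 2 and −0.023 without vehicle 3, and reached 0.37 without anti-CD40 1.

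**Figure D3:**
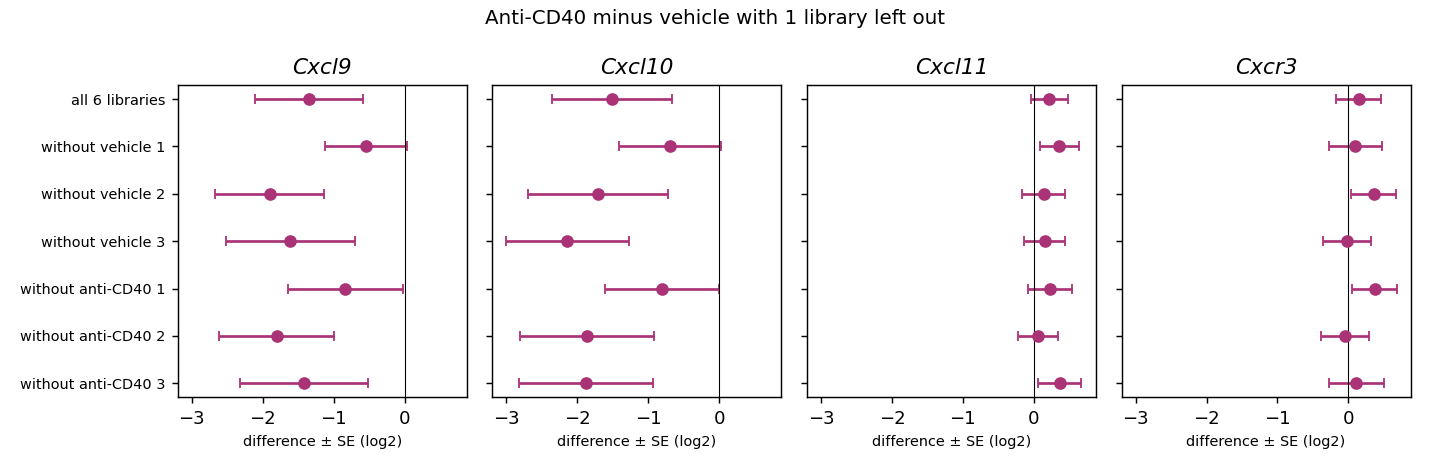
Difference of means, anti-CD40 minus vehicle (horizontal axis, log2), with its SE, for each axis gene over all 6 libraries and with 1 library left out (rows). Cxcl9 and Cxcl10 moved from −1.35 and −1.51 to −0.54 and −0.69 without vehicle 1, and the 2 other genes stayed between −0.051 and 0.37.

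Likeness to each gene was measured as the root mean square difference between log2 values over the 6 libraries, with every gene centred on its own mean, among genes above background in at least 4 libraries. A gene without variation would lie at the ligand gene's own root mean square spread, 1.20 for Cxcl9 and 1.35 for Cxcl10. The measure thus favours genes that also vary widely. Nearest to Cxcl9 was Cxcl10, at 0.52, beside a median of 1.20 over 586 candidate genes. The peptide transporter gene Tap1 (0.58), the checkpoint ligand gene Cd274 (0.63), the nucleic acid sensor gene Zbp1 (0.64) and the guanylate-binding protein gene Gbp5 (0.66) came next. For Cxcl10 the nearest was Cxcl9, followed by the immediate-early gene Fos (0.54), Zbp1 (0.71), Gbp5 (0.71) and the ubiquitin-like interferon-stimulated gene Isg15 (0.72). Fos was 13.05, 11.91 and 10.62 in vehicle and 10.19, 10.98 and 10.995 in anti-CD40 libraries. All 6 of these other genes were highest in vehicle 1 and lowest in anti-CD40 1.

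This likeness rested on vehicle 1 and anti-CD40 1. Without vehicle 1, Cxcl10 ranked 76 among the genes nearest to Cxcl9 and Cxcl9 ranked 14 among those nearest to Cxcl10. Their distance was then 0.57, but their own spread had fallen to 0.70 for Cxcl9 and 0.89 for Cxcl10. The median distance of the candidates had fallen too, to 0.77 from Cxcl9 and 0.92 from Cxcl10. Nearest to Cxcl9 were then the costimulatory ligand gene Cd80 (0.18) and the class I transactivator gene Nlrc5 (0.19). Nearest to Cxcl10 were the T cell chemokine gene Ccl5 (0.44) and Nlrc5 (0.44). Without anti-CD40 1 the ranks were 3 and 11, and the antiviral synthetase gene Oas2 (0.23) was nearest to Cxcl10. With any of the 4 other libraries left out, the ligand genes were again each other's nearest.

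**Figure D4:**
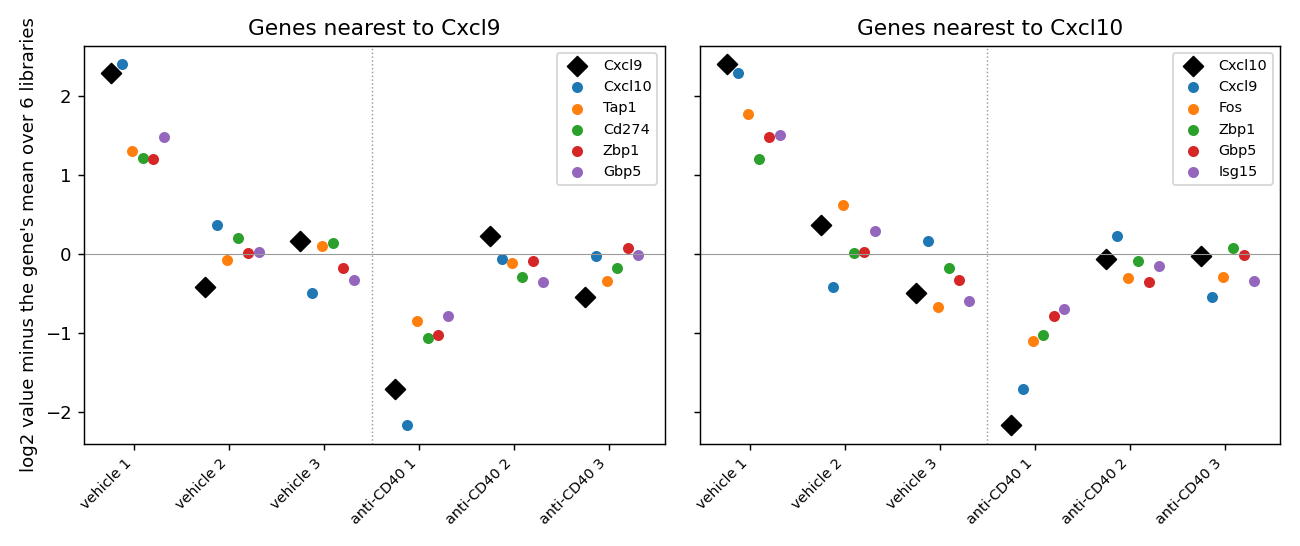
Log2 value minus the gene's mean over 6 libraries (vertical axis) in each library, for Cxcl9 (left) and Cxcl10 (right), as black diamonds, and their 5 nearest genes, as coloured points. In vehicle 1 every gene shown stands above its mean and in anti-CD40 1 below it, and the ligand genes lie farthest out in both.

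For Cxcl11 and Cxcr3, whose own spread was small, other genes were nearest. The median distance over the 586 candidate genes was also small, at 0.37 for Cxcl11 and 0.43 for Cxcr3. Both genes had low counts, and their rankings were not repeated with 1 library left out. The interleukin 17 receptor gene Il17ra (0.093) and the cholesterol transporter gene Abca1 (0.11) were nearest to Cxcl11. Tnfrsf1b (0.099), which encodes a tumour necrosis factor receptor, the leukocyte integrin gene Itgb2 (0.13) and the transcription factor gene Batf (0.15) were nearest to Cxcr3, followed by the leukocyte surface gene Cd53 (0.15) and the interleukin 7 receptor gene Il7r (0.16).

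The cytokine at the head of the pathway, Ifng, never exceeded background, at 5.55, 6.06 and 5.28 in vehicle and 5.52, 5.45 and 5.14 in anti-CD40 libraries. At this depth its level could not be compared between groups. Its receptor gene Ifngr1 was 10.36 ± 0.38 (SD, n = 3) and 10.72 ± 0.26 (SD, n = 3), the first value being the vehicle group's here and below. The receptor-bound kinase genes Jak1 (11.60 ± 0.17 and 11.76 ± 0.06) and Jak2 (10.14 ± 0.16 and 10.26 ± 0.06) differed by 0.16 and 0.12.

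Irf1, an interferon-induced transcription factor that acts on the ligand genes, was 10.46, 9.59 and 9.41 in vehicle and 9.17, 9.21 and 8.98 in anti-CD40 libraries. Its groups did not overlap, and its difference of −0.70 (SE 0.31) was −0.38 without vehicle 1. Ciita, the regulator of MHC class II genes, was 8.01, 7.77 and 7.42 in vehicle and 6.52, 7.59 and 6.76 in anti-CD40 libraries, with a gap of −0.78 that shrank to −0.56 without anti-CD40 1. The myeloid factor gene Irf8 (8.21 ± 0.47 and 7.85 ± 0.27) and the feedback inhibitor gene Socs1 (8.79 ± 0.21 and 8.36 ± 0.32) also had overlapping groups.

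Of the 9 measured genes of interferon gamma signalling, 3 were higher and 6 lower by their means, with a median difference of −0.36, beside 0.038 over all 770 genes. Limma called 0 of the 9 in either direction, and Irf1 had an adjusted p of 0.974. Of 16 measured response genes of interferon gamma, 2 were higher and 14 lower, with a median of −0.27 that was −0.097 without vehicle 1, and 0 were called in either direction. In 13 of the 16 the highest library was vehicle 1, beside 22.3% of all genes, and in 9 the lowest was anti-CD40 1, beside 20.4%.

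Members of that list with the largest differences were Cd274, Tap1, Gbp5 and the immunoproteasome gene Psmb9. Cd274 was 9.58, 8.57 and 8.51 in vehicle and 7.30, 8.08 and 8.19 in anti-CD40 libraries, with no overlap, and its difference of −1.03 (SE 0.38) shrank to −0.68 without vehicle 1. Tap1, which moves peptides to MHC class I, was 10.98, 9.61 and 9.78 in vehicle and 8.83, 9.56 and 9.34 in anti-CD40 libraries, again with no overlap, and its difference of −0.88 was −0.45 without vehicle 1. Psmb9 differed by −0.75 and Gbp5 by −0.77, which became −0.47 and −0.23 without vehicle 1. Ido1, a tryptophan-degrading enzyme gene often measured beside Cxcl9 and Cxcl10 as an interferon gamma target, never exceeded background.

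**Figure D5:**
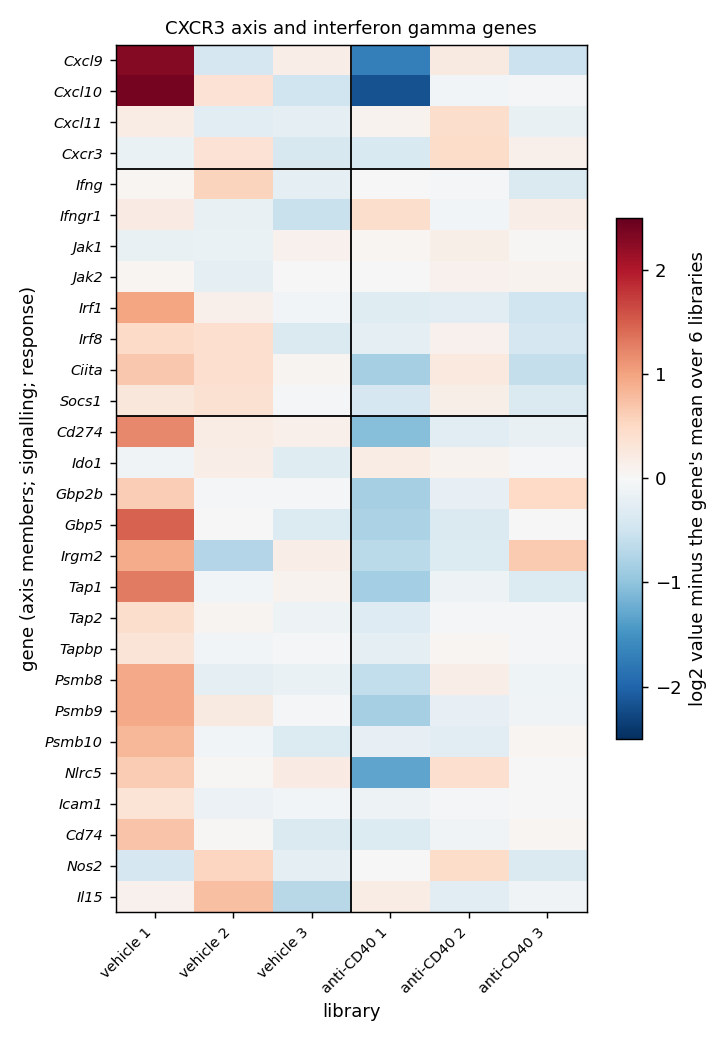
Log2 value minus the gene's mean over 6 libraries (colour) for the 4 axis genes (top), 8 interferon gamma signalling genes (middle) and 16 response genes (bottom), by library. Vehicle 1 is the highest library for 13 of the 16 response genes, and Cxcl9 and Cxcl10 have the strongest colours at both ends.

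Among 32 measured type I interferon genes, another route to Cxcl10, 9 were higher and 23 lower by their means, with a median difference of −0.18 that was 0.0055 without vehicle 1, and 0 were called in either direction. In 18 of the 32 vehicle 1 was the highest library. Isg15 was 10.36, 9.14 and 8.26 in vehicle and 8.16, 8.70 and 8.51 in anti-CD40 libraries, and its difference of −0.80 shrank to −0.24 without vehicle 1. Oas2 was 8.95, 7.63 and 6.58 in vehicle, a wide spread, and 7.05, 6.90 and 7.0 in anti-CD40 libraries. Zbp1 (8.32 ± 0.75 and 7.63 ± 0.59) and the antiviral gene Ifit3 (9.73 ± 0.56 and 9.17 ± 0.49) had overlapping groups. The interferon genes Ifna1, Ifna2, Ifna4 and Ifnb1 never exceeded background.

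The 11 measured NF-κB genes were all above background in every library. Of these 6 were higher and 5 lower, with a median of 0.032, and 0 were called in either direction. Tnfaip3, a feedback inhibitor, differed by −0.63 and the subunit gene Rel by −0.55, while the subunit gene Nfkb1 differed by 0.21. Tnf, a cytokine that cooperates with interferon gamma on the ligand genes, was 6.72 ± 0.09 and 6.46 ± 0.37. Vehicle 1 was the highest library for 3 of the 11.

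Genes of type 1 polarization and of cells that bear CXCR3 were mostly low on this panel, with 4 of 17 above background in all libraries. Of the 17, 5 were higher and 12 lower by their means, with a median of −0.20, and 0 were called in either direction. The median was −0.058 without anti-CD40 1 and −0.36 over the 8 genes above background in at least 3 libraries. Ccl5 was 7.45, 6.73 and 6.44 in vehicle and 5.36, 6.64 and 6.32 in anti-CD40 libraries, and its difference of −0.77 shrank to −0.39 without anti-CD40 1. The cytokine receptor genes Il2rb (7.98 ± 0.40 and 7.35 ± 1.10) and Il12rb2 (6.59 ± 0.78 and 5.79 ± 0.60) and the chemokine receptor gene Cxcr6 (7.26 ± 0.34 and 6.83 ± 0.94) had overlapping groups. Ccl5 in anti-CD40 1, at 5.36, lay below that library's background limit of 5.94. Il12rb2 lay below the limit in anti-CD40 1 and anti-CD40 3, and Cxcr6 in anti-CD40 3. In 8 of the 17 anti-CD40 1 was the lowest library, and in 4 vehicle 1 was the highest.

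T cell markers were also often lowest in anti-CD40 1. Of 17 measured T cell genes, 1 was higher and 16 lower by their means, with a median of −0.23, and 0 were called in either direction. The median was −0.080 without anti-CD40 1 and −0.43 without anti-CD40 2. Their summed normalized counts ran from 1376 to 1898 in vehicle and from 1064 to 1840 in anti-CD40 libraries, with anti-CD40 1 the lowest, and 9 of the 17 genes were lowest there. Vehicle 1 was highest for 4 of them. Cd3e, a T cell receptor subunit, was 7.28, 6.64 and 6.65 in vehicle and 5.95, 7.51 and 6.27 in anti-CD40 libraries. Cd5, a T cell surface receptor, was 8.80, 8.41 and 8.63 in vehicle and 7.55, 7.94 and 7.85 in anti-CD40 libraries, with no overlap and an adjusted p of 0.974 with limma. Of the 17 genes, 5 exceeded background in all libraries and 4, among them Cd2, Cd8b1 and Cd27, in none. No gene had 0 counts. Over the 12 genes above background in at least 3 libraries the median was −0.22. The part of T cell content in the ligand levels was not tested.

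Of 14 measured natural killer and cytotoxic cell genes, which also mark cells with CXCR3, 7 were higher and 7 lower, with a median of 0.0066, and 1 was above background in all libraries. Over the 4 genes above background in at least 3 libraries the median was −0.32. Their summed normalized counts were 620 to 932 in vehicle and 710 to 796 in anti-CD40 libraries. Ncr1, Prf1, Gzmk, Fasl and Klra1 were at or below background throughout. The activating receptor gene Klrk1 was 7.09, 6.78 and 6.60 in vehicle and 6.32, 6.41 and 6.05 in anti-CD40 libraries, and its groups did not overlap. The Klrk1 level of anti-CD40 3 lay below that library's background limit of 6.24. The receptor chain gene Klrd1 was 7.14 ± 0.39 and 6.71 ± 0.14.

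Cells that can make the ligands were measured by other lists. All 8 measured dendritic cell genes were lower in the mean, with a median of −0.24, and 0 were called. Their summed counts were 806 to 1226 in vehicle and 787 to 971 in anti-CD40 libraries, with anti-CD40 1 lowest for 5 of the 8 and vehicle 1 highest for 4. Of the 8, 3 exceeded background in all libraries, and Xcr1 and Lamp3 were at or below it throughout. The cytokine receptor gene Flt3 was 6.60 ± 0.39 and 5.85 ± 0.34. Its values of 5.52 in anti-CD40 1 and 5.85 in anti-CD40 3 lay below those libraries' background limits of 5.94 and 6.24. Macrophage and monocyte genes went the other way in the mean, 9 of 13 higher, with a median of 0.26 and 0 called. That median was 0.021 without vehicle 3 and 0.47 without vehicle 1. The scavenger receptor gene Cd163 was 7.90 ± 0.50 and 8.57 ± 0.37, with no overlap, while the monocyte chemokine receptor gene Ccr2 was 10.26 ± 0.35 and 9.81 ± 0.71. Macrophage summed counts were 9541 to 20284 in vehicle and 16585 to 16922 in anti-CD40 libraries, and vehicle 1 was not highest. Such sums mostly follow the most abundant genes of a list. The mean log2 level of the list was 8.91, 8.90 and 8.16 in vehicle and 8.69, 9.04 and 8.75 in anti-CD40 libraries. By that measure vehicle 1 was the highest vehicle library and anti-CD40 2 the highest of all. The part of these cell types in the ligand levels was not tested.

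Endothelial genes, another source, were higher in the mean for 6 of 7 (median 0.19), with anti-CD40 1 at 9389, the highest summed normalized count. Their median was 0.016 without vehicle 3 and 0.027 without anti-CD40 1. Epithelial genes were lower in the mean for 4 of 6 (median −0.24), with summed counts of 16374 to 24597 in vehicle and 12878 to 18815 in anti-CD40 libraries. Fibroblast genes were higher for 6 of 6 (median 0.16), B cell genes for 5 of 9 (0.26) and neutrophil and granule genes for 7 of 8 (0.68), none of them called. Without vehicle 3 these medians were 0.043, −0.21 and 0.24, and without vehicle 2 they were 0.38, 0.65 and 1.60. In these last 3 lists vehicle 1 was highest for 1 gene and anti-CD40 1 lowest for none. The mean log2 level of the neutrophil list was 6.90, 9.61 and 6.48 in vehicle and 9.59, 8.92 and 6.82 in anti-CD40 libraries. High libraries thus stood in both groups. B cell means were 5.21, 6.75 and 5.04 in vehicle and 6.05, 6.11 and 5.17 in anti-CD40 libraries. Of the 9 B cell genes, 0 exceeded background in all libraries.

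The order of the libraries was mixed for other CXC chemokine genes. Of 14 measured CXC chemokine and receptor genes outside the axis, 8 were higher and 6 lower, with a median of 0.20 and 0 called, and vehicle 1 was highest for 2. The neutrophil attractant gene Cxcl1 was 8.16, 8.36 and 8.67 in vehicle and 6.48, 8.61 and 6.72 in anti-CD40 libraries, so that it shared the low value of anti-CD40 1 but not the high value of vehicle 1. The B cell attractant gene Cxcl13 was 7.87, 7.12 and 8.11 in vehicle and 8.17, 8.60 and 10.60 in anti-CD40 libraries, with no overlap, and its difference of 1.42 shrank to 0.69 without anti-CD40 3. Dpp4, a peptidase that trims CXCR3 ligands, was 7.45, 8.42 and 7.30 in vehicle and 8.41, 7.62 and 7.80 in anti-CD40 libraries, with overlapping groups. Pf4, another CXC chemokine gene listed with it, was not analysed here.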

How the data were processed

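RNA from 6 tumour samples was measured. The deposited values are log2 normalized counts per the file name, in 784 rows: 770 genes, 6 positive and 8 negative controls. How the authors normalized them, and on which platform, is not stated. A deposited value x follows 2 to the power x = count × library factor + 4.55, with factors of 1.72 to 3.28; this gave whole counts, to within 0.05, for all 4704 values. Background is still in the values and affects the differences of low genes. Libraries held 333400 to 578598 counts.

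Groups were compared with limma 3.58.1 (lmFit, eBayes) in R 4.3.3, two-sided, with Benjamini-Hochberg adjustment over 770 genes and a threshold of 0.05; 3 against 3 samples cannot give an exact permutation p under 0.1. The procedure was tested on simulated data. Tables and plots used Python 3.11.15. Genes named were the axis genes, all interferon gamma signalling genes and Dpp4, the 4 largest differences per list among genes above background in at least 4 libraries, and the 5 genes nearest to each axis gene. Genes named beside these (Cd80, Nlrc5, Ccl20, Ido1 and genes at background) were chosen after their values were seen. Some genes these rules pick are not reported here singly, but stay in the counts, medians and ranks. The axis genes and all lists were chosen with earlier results of these data known. Alternatives were housekeeping centring (20 genes), quantile normalization, a background filter (at least 3 libraries), background subtraction, limma-voom, a replicate block and leaving out each library.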

Additional observations from a re-analysis of the deposited data

How the results depend on the processing

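The differences of Cxcl9 and Cxcl10 kept their direction under all 6 alternative fits and with each of the 6 libraries left out. The replicate block and the background filter could not move them, since both leave a difference of group means unchanged in this balanced design. Both genes were selected on this contrast, so the kept direction is only a description. Under the alternatives the differences lay between −1.73 and −1.30 for Cxcl9 and between −2.08 and −1.49 for Cxcl10. With 1 library left out they ran from −1.90 to −0.54 and from −2.14 to −0.69. The widest values of the alternatives came with background subtracted, which also took Cxcr3 from 0.14 to 0.040. Cxcl11 lay between 0.18 and 0.34. Limma or limma-voom called 0 genes in every fit. The number with an unadjusted p under 0.05, 25 in the fit reported above, was 52 after quantile normalization and 13 to 49 with 1 library left out. With 1 library left out, the median differences of type I interferon, NF-κB, natural killer cell, B cell and other CXC chemokine genes and of all genes changed sign in at least 1 fit, and so did Dpp4 (−0.012 without anti-CD40 1). The medians of NF-κB, natural killer cell, B cell and all genes also changed sign under at least 1 of the alternative fits. With 1 library left out, the other list medians kept their sign but ran from 0.021 to 0.47 for macrophage, 0.016 to 0.39 for endothelial, 0.043 to 0.38 for fibroblast, 0.24 to 1.60 for neutrophil, −0.43 to −0.080 for T cell, −0.43 to −0.11 for dendritic cell and −0.40 to −0.058 for type 1 polarization genes. The medians of interferon gamma signalling and response genes ran from −0.55 to −0.21 and from −0.50 to −0.097, and that of epithelial genes from −0.41 to −0.22. With background subtracted the median was −0.67 for T cell, −0.56 for type 1 polarization, −0.54 for dendritic cell and 1.28 for neutrophil genes. The labels do not say whether the replicate numbers pair the samples. Deviations of same-numbered samples correlated at −0.43, 0.069 and 0.28 across genes, and those of differently numbered samples at −0.56 to 0.48. Being deviations from means of only 3 libraries, they cannot settle whether samples were paired. A fit with the number as a block called 0 genes and left 32 with an unadjusted p below 0.05. Leaving out libraries for the likeness of Cxcl9 and Cxcl10 was chosen after seeing the data. Counts of 21 to 52 limit what can be said of Cxcl11 and Cxcr3, and Ifng lay at background.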
